A study of Mus musculus with 40 samples.

Results

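The 46 genes described here encode proteins of successive phases of the cell division cycle, 23 of DNA replication and 23 of mitosis. They were found by symbol, through Ensembl identifiers in GENCODE M21 (GRCm38), in gene-level counts from RNA sequencing of mouse hematopoietic progenitor cells (source label: hematopoietic progenitor/MPP), the multipotent cells that give rise to blood lineages. All 46 were present among 41388 gene IDs at 14 days of age (P14) and 40548 at birth (P0). All 46 also passed the filter on low counts, which left 14394 genes tested at P14 and 14359 at P0. The replication genes are the helicase subunits Mcm2 to Mcm7, the replication factor Mcm10, the helicase partners Cdc45, Gins1 and Gins2, the loaders Cdc6 and Cdt1, the clamp Pcna and its loaders Rfc3 and Rfc4, the polymerase and primase subunits Pola1 and Prim1, the nucleotide synthesis enzymes Rrm1, Rrm2, Tyms and Tk1, and the cyclins Ccne1 and Ccne2. The mitosis genes are the transcription factor Foxm1, the cyclins Ccna2, Ccnb1 and Ccnb2 with their kinase Cdk1, the kinases Aurka, Aurkb, Bub1, Bub1b and Plk1, the anaphase activator Cdc20, the ubiquitin enzyme Ube2c, the centromere proteins Cenpa, Cenpe and Cenpf, the motors Kif11, Kif20a and Kif23, the spindle proteins Tpx2 and Nusap1, Birc5 of the chromosomal passenger complex, Top2a, which untangles DNA, and the proliferation antigen Mki67.

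The study combined 3 alterations found in acute myeloid leukemia: FLT3-ITD, an internal tandem duplication that activates a receptor tyrosine kinase; NUP98-HOXD13 (NHD13), which joins parts of a nucleoporin and a homeobox factor; and Runx1-HET, loss of 1 copy of a blood transcription factor, here called Runx1-heterozygous. At P14 there were 6 groups: wild type, the 3 alterations singly, and the double mutants FLT3-ITD with NHD13 and FLT3-ITD plus Runx1-heterozygous. The 3 groups at P0 were FLT3-ITD with NHD13, FLT3-ITD alone and wild type. Every group had 4 libraries. The labels name no strain, no promoter of the NHD13 or FLT3-ITD allele and no pooling of animals, and they do not say that libraries of a group came from separate animals, so p-values measure the spread between these libraries.

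In a dividing cell, the MCM helicase is loaded on DNA by Cdc6 and Cdt1 in G1, fired at the start of S phase under cyclin E kinases, and followed by polymerases, the Pcna clamp and a supply of nucleotides. E2F factors drive the genes for these proteins around the start of S phase. Genes of mitosis peak later, in G2 and M, under the MuvB complex with B-Myb and Foxm1, which acts through CHR promoter elements together with CCAAT boxes. In blood formation, multipotent progenitors divide more often than the quiescent stem cells from which they come. A bulk library cannot tell a smaller share of cells in a phase from less RNA per cell.

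P14 libraries held 13.7 to 27.3 M counts and P0 libraries 17.3 to 39.3 M. Progenitor markers were high in every group, with Cd34 or Ly6e as the top gene and a summed level over 13 genes of 6230 to 8530 CPM (counts scaled by library size) at P14 and 4520 to 6920 at P0. Mpo, an early lineage gene that progenitors can also express, was present at a mean of 578 CPM in the P14 wild type, while the liver genes Alb and Ttr and the platelet gene Gp6 were at 0 in all libraries of that group. Of 10 stroma, endothelium and liver markers, 4 reached 1 CPM in a library there (summed 156 to 177 CPM). In the P0 wild type 9 did (103 to 642 CPM, median 138), and none was at 0 in all libraries. Mast, basophil and eosinophil markers summed to 253 to 1690 CPM in the P0 wild type. Libraries with more Y-linked than Xist counts made up 1 of 4 in the P14 wild type and 3 of 4 in FLT3-ITD with NHD13, so sex differed between the groups. Below, levels are CPM per library in the order of replicates 1 to 4. A change is a log2 fold change ± SE from edgeR's quasi-likelihood test. It is said to pass where the p adjusted by Benjamini-Hochberg over all genes tested is under 0.05. Some counts of members are also given at an unadjusted p under 0.05. The share of all genes at that unadjusted threshold is not given, and every share of genes passing is at an adjusted p under 0.05.

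All 46 genes were well expressed, but over a wide range. On a per-length scale, in mean CPM per kb of exon in the P14 wild type, the helicase subunits Mcm3 (257.9) and Mcm5 (197.5) led the replication genes, whose median was 44.2. Ccne1, a regulatory cyclin, was lowest at 2.70. Among the mitosis genes, Top2a (171.4) and Ccnb2 (163.1) led, the median was 49.7 and the factor Foxm1 was lowest at 3.71. Mcm3 was the highest and Ccne1 the lowest replication gene in all 6 P14 groups, and Foxm1 was the lowest mitosis gene in all 6. Ccnb2 stood above Top2a in NHD13 alone and in FLT3-ITD with NHD13.

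The promoters of the replication and mitosis sets differed in their letters. Reference promoters (RefSeq, GRCm38.p6, 250 bases before to 50 after the start) were matched for 19 of 23 replication and 18 of 23 mitosis genes. The CHR letters TTTGAA or TTCGAA, on either strand, were in 14 of 18 mitosis promoters (77.8%) and 4 of 19 replication promoters (21.1%), against 19.2% of all 32851 promoters. The CCAAT letters, on either strand, were in 16 of 18 (88.9%) and 13 of 19 (68.4%), against 37.4% of all, and every member with CHR letters also held CCAAT letters. The E2F letters TTTGGCGC, TTTCGCGC, TTTCCCGC or TTTGCCGC, on either strand, were in 8 of 19 replication promoters (42.1%) and in 1 of 18 mitosis promoters (5.56%, Cdk1), against 2.26% of all. Such matches describe letters and are not binding sites. Because the sets gave different counts in the comparisons below, 2 promoters of each are shown 5′ to 3′ on the gene's strand, with the matched letters in capitals. Mcm5 (chr8:75109259-75109558, + strand) and Cdc6 (chr11:98907901-98908200, + strand) carry E2F letters, Mcm5 in 2 overlapping matches on opposite strands beside 3 CCAAT matches. Mki67 (chr7:135716330-135716629, - strand) and Kif23 (chr9:61946750-61947049, - strand) carry CHR and CCAAT letters.
Mcm5: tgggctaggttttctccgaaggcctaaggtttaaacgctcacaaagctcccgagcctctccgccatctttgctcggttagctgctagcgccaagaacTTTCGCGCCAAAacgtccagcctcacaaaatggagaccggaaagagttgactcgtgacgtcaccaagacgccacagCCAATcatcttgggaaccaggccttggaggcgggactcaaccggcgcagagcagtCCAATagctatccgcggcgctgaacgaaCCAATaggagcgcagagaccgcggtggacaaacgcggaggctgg
Cdc6: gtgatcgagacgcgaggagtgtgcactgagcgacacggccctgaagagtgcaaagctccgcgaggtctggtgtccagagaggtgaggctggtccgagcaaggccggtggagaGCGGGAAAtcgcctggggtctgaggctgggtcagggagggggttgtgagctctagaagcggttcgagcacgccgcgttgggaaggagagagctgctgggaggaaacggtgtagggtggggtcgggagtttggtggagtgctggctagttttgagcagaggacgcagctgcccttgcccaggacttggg
Mki67: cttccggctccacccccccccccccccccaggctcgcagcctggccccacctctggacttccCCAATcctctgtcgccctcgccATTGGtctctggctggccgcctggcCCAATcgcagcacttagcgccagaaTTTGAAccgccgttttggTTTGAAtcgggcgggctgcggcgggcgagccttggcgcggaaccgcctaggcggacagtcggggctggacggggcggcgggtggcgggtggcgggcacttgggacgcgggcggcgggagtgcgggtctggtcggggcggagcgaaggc
Kif23: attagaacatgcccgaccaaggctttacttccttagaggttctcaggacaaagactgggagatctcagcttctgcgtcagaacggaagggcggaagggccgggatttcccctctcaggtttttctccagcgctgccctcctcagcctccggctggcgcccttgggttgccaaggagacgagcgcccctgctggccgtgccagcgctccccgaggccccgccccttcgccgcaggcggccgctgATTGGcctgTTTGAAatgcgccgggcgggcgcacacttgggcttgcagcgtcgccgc
The first CHR match of Mki67 begins 116 bases before the RefSeq start and that of Kif23 begins at base 3 after it. The RefSeq starts of Cdc6 and Mki67 lie within a transcript on the same strand. For Cdc6 the whole window lies inside the GENCODE gene, which begins at base 98907801.

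At P14, mitosis genes were lower in FLT3-ITD with NHD13 than in wild type, and replication genes as a whole were not. Of 23 mitosis genes, 10 fell and none rose, where 22.4% of all genes tested passed (12.2% fell and 10.2% rose). The median mitosis log2 fold change was -0.17, with 20 of 23 below 0, against 0.00 over all genes. Of 23 replication genes, 1 fell and none rose, with a median of 0.01. The changes were small, at most 1.63-fold. DESeq2 called the same numbers lower, 10 and 1, where it called 12.8% of all genes lower. With only the 2 groups in the fit 5 members passed in all. The 11 calls became 5, 7 and 7 without replicate 2, 3 or 4 of the double mutant and 6 without wild-type replicate 3.

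Nusap1, which bundles spindle microtubules, was measured at 499, 432, 456 and 386 CPM in wild type and 372, 308, 327 and 299 in FLT3-ITD with NHD13. Every FLT3-ITD with NHD13 library lay below every wild-type library. The change was -0.44 ± 0.09, adjusted p = 0.000647. Kif23, a motor of the central spindle in cytokinesis, was at 192, 184, 202 and 166 CPM in wild type and 135, 137, 152 and 143 in FLT3-ITD with NHD13, again without overlap (-0.39 ± 0.08, adjusted p = 0.000761). Mki67, which coats mitotic chromosomes, was at 135, 257, 260.2 and 248 CPM in wild type and 123, 139, 166 and 165 in FLT3-ITD with NHD13. Wild-type replicate 1 stood far below the other 3 wild-type libraries and inside the range of the double mutant. The change was -0.60 ± 0.14, adjusted p = 0.00211. These 3 genes passed under all 14 alternatives tried.

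Foxm1, the transcription factor of the G2 and M program, changed most on the log scale. It stood at 13.3, 18.1, 26.1 and 27.9 CPM in wild type and 10.8, 10.6, 13.9 and 16.8 in the double mutant (-0.71 ± 0.18, adjusted p = 0.00344), and the groups overlapped, because wild-type replicate 1 was low here too. The call ended with only the 2 groups in the fit (adjusted p = 0.0529). Top2a (-0.31 ± 0.09) and Cenpf of the kinetochore (-0.29 ± 0.09) also fell, but the Top2a call ended without replicate 2 of the double mutant, and that of Cenpf without this library or wild-type replicate 3. The remaining calls were weaker: the checkpoint kinase Bub1b (-0.27 ± 0.09) held in 9 of 14 alternatives, the centromeric histone Cenpa (-0.25 ± 0.09) and Ccnb2 (-0.22 ± 0.08) in 5, and Birc5 (-0.24 ± 0.09) in 4.

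Not every gene of mitosis passed, although 20 of 23 estimates were below 0. Cdk1 was at 283, 250.1, 259.8 and 254 CPM in wild type and 251, 228, 235 and 224 in the double mutant (-0.16 ± 0.08, adjusted p = 0.189). Its cyclin Ccnb1 was at 123, 126, 136 and 113 and 125, 137, 139.9 and 125 CPM (0.08 ± 0.09, adjusted p = 0.558), with ranges that overlapped. The anaphase activator Cdc20 was at 36.0, 56.1, 56.2 and 63.3 and 39.3, 56.9, 54.3 and 58.8 CPM (-0.01 ± 0.13, adjusted p = 0.962). For the mitotic kinases Plk1 and Aurkb and the motor Kif20a, log2 fold changes were -0.07 ± 0.13, -0.20 ± 0.10 and -0.07 ± 0.10, none passing. Aurkb ranged over 229 to 300.0 CPM in wild type and 218 to 237 in the double mutant.

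Among the replication genes, only Tyms, the thymidylate synthase, passed. It was at 329, 266, 248 and 234 CPM in wild type and 268, 198, 189.7 and 211 in the double mutant (-0.31 ± 0.11, adjusted p = 0.0323). Replicate 1 was the highest library in both groups, and the call held in 8 of 14 alternatives. The helicase subunit Mcm5 was at 805, 815, 802 and 732 and 798, 748, 727 and 779 CPM, with a difference of -0.05 ± 0.09. The loader Cdc6 was at 206, 197, 208 and 166 and 182, 185, 179.7 and 203 CPM (-0.05 ± 0.10), and its partner Cdt1 ranged from 46.6 to 86.9 and from 52.2 to 86.4 (0.01 ± 0.21). The clamp Pcna (0.01 ± 0.10), Mcm10 (0.10 ± 0.11), Rrm2 (0.13 ± 0.10), Ccne1 (0.13 ± 0.22) and Ccne2 (0.13 ± 0.17) were not shown to differ either. Their SEs were 0.10 to 0.22.

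**Figure D1:**
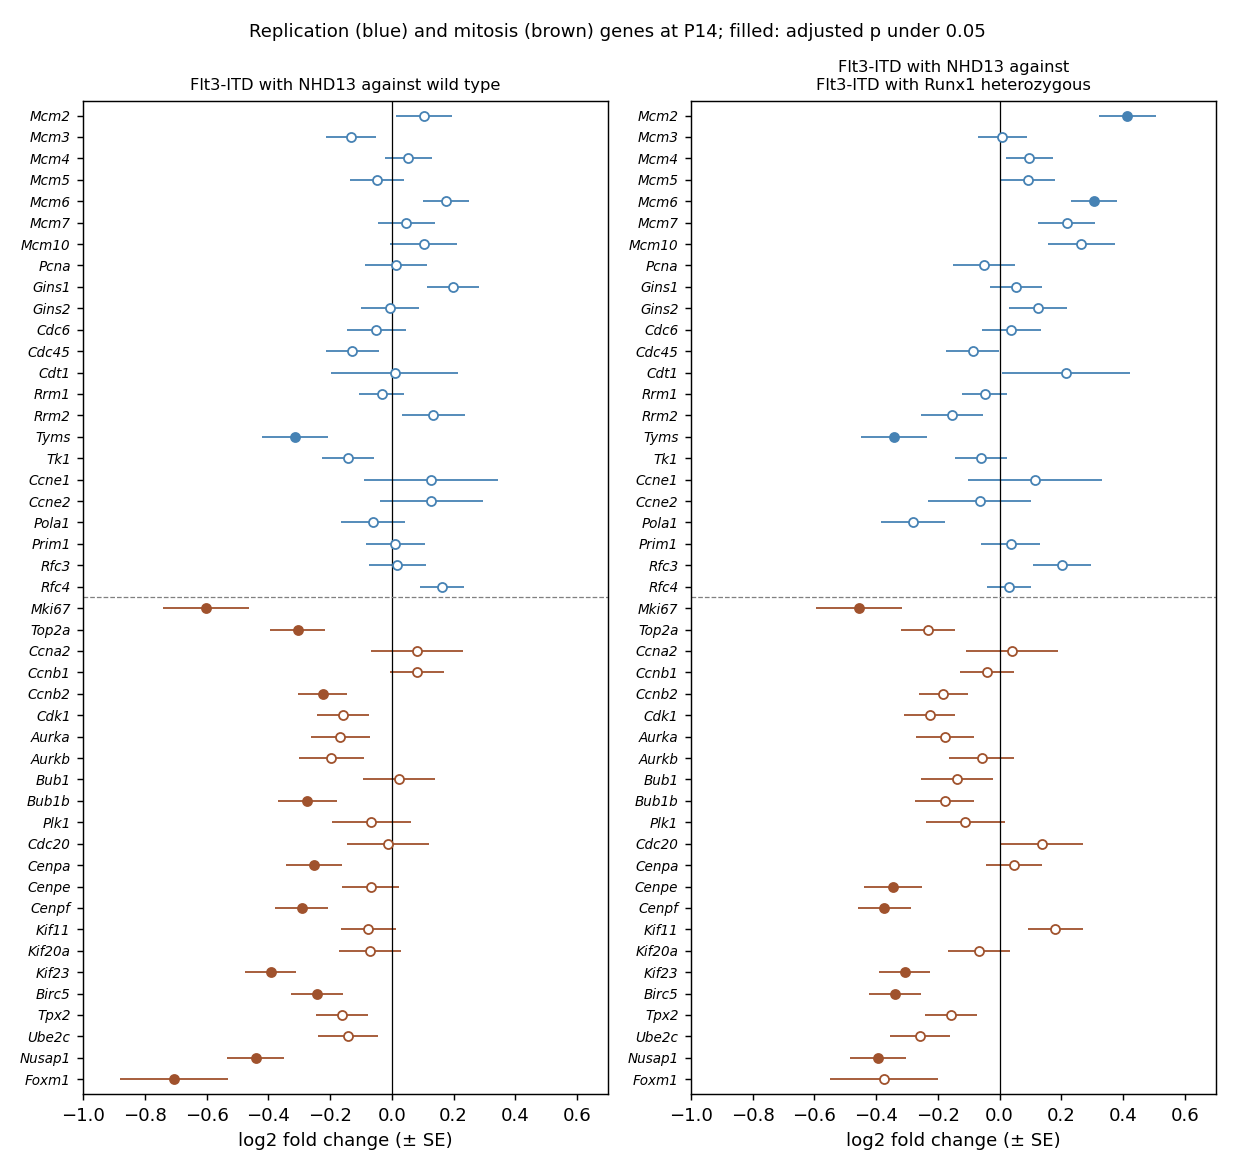
Log2 fold change (x axis) of each of the 46 genes (y axis) at P14, in FLT3-ITD with NHD13 against wild type (left) and against FLT3-ITD with Runx1-heterozygous (right), from 4 libraries a group. Points are edgeR estimates, bars ± SE, filled points pass at an adjusted p under 0.05; on the left 10 of 23 mitosis genes are filled and below 0, against 1 of 23 replication genes.

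Further genes of both processes were counted from wider lists, beside the 12.2% of all genes that fell and 10.2% that rose. Of 65 other mitosis genes tested, 13 fell and 2 rose. Aspm of the spindle pole (-0.71 ± 0.12), the centromere gene Cenpm (-0.46 ± 0.09) and the cytokinesis factor Ect2 (-0.41 ± 0.14) fell, while the condensin subunit Smc4 (0.55 ± 0.10) and Trip13 (0.26 ± 0.09) rose. Of 54 other replication genes, 2 fell, Tcf19 (-0.91 ± 0.10) and Gins3 (-0.31 ± 0.10), and 5 rose, led by Rpa3 (0.42 ± 0.12), Dna2 (0.34 ± 0.10) and Pole2 (0.31 ± 0.08). Of 40 cell cycle regulators, 6 rose and 4 fell. The kinase inhibitor Cdkn1a (1.03 ± 0.19), Mycn (1.03 ± 0.17) and E2f5 (0.81 ± 0.28) rose, and the D-type cyclins Ccnd1 (-1.12 ± 0.23) and Ccnd3 (-0.48 ± 0.12) and the repressor E2f7 (-0.47 ± 0.16) fell.

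Markers of cell type moved in the same comparison. Of 13 progenitor markers, 6 rose and 5 fell, and their summed level was 6230 to 6600 CPM in FLT3-ITD with NHD13 against 7120 to 8530 in wild type. Of 14 granulocyte-monocyte markers, 2 rose and 4 fell (705 to 1360 against 860 to 1120 CPM). Of 8 T and NK cell markers 5 were tested, 1 rose and 3 fell (84.9 to 109 against 238 to 320 CPM, with Cd8a at 0 in both). Of 7 megakaryocyte markers 5 were tested and 4 rose (172 to 440 against 78.1 to 102 CPM, with Gp6 at 0 in both groups), among them the platelet factor Pf4, at a mean of 200 CPM against 10. Of 11 erythroid markers tested, 3 rose and 1 fell (161 to 218 against 146 to 160 CPM), and of 6 mast, basophil and eosinophil markers tested, 2 rose and 2 fell (36.1 to 129 against 227 to 879 CPM). Of 6 B cell markers tested, none passed. The part of these markers in the mitosis result was not tested. With sex as a term in the fit, 10 members passed.

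Between the double mutants, mitosis genes were lower in FLT3-ITD with NHD13, while the calls among replication genes were below the shares over all genes. The FLT3-ITD with NHD13 libraries are those already compared with wild type, so this is not a separate observation of them. In FLT3-ITD with NHD13 against FLT3-ITD with Runx1-heterozygous at P14, 6 of 23 mitosis genes fell and none rose, and 2 of 23 replication genes rose and 1 fell, where 20.5% of all genes passed (10% fell and 10.5% rose). The median was -0.18 for mitosis genes, 0.04 for replication genes and 0.00 over all genes. Against FLT3-ITD alone, the mitosis median was -0.10 in FLT3-ITD with NHD13 and 0.08 in FLT3-ITD with Runx1-heterozygous, so both double mutants contribute to the gap. Mcm2, a subunit of the helicase, was at 325, 364, 348 and 394 CPM with NHD13 and 289, 264, 271 and 249 with Runx1-heterozygous, without overlap (0.41 ± 0.09, adjusted p = 0.00132). Mcm6, its neighbour in the ring, was at 774, 889, 889.8 and 944 and 735, 683, 727 and 683 CPM, also apart (0.31 ± 0.07, adjusted p = 0.00338). Both passed in all 14 alternatives. Tyms (-0.34 ± 0.11, adjusted p = 0.0206) went the other way and held in 9 of 14.

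Cenpf fell most clearly of the mitosis genes, with 131, 112, 135 and 125 CPM under NHD13 and 143, 180.2, 166 and 161 under Runx1-heterozygous (-0.37 ± 0.09, adjusted p = 0.00205). Cenpe, a kinetochore motor, was at 138, 117, 134 and 133 and 152, 189, 177 and 146 CPM (-0.35 ± 0.09, adjusted p = 0.00796). In both genes no library of one group reached the range of the other. Mki67 (-0.46 ± 0.14), Nusap1 (-0.39 ± 0.09), Birc5 (-0.34 ± 0.09) and Kif23 (-0.31 ± 0.08) completed the 6. Cenpf, Birc5 and Nusap1 passed in all 14 alternatives, Cenpe and Kif23 in 13 and Mki67 in 10. Without replicate 2 of FLT3-ITD with Runx1-heterozygous, 5 members passed in place of 9. Both double mutants carry FLT3-ITD, and Ccnd1 (2.70 ± 0.27), Cdkn1a (-1.21 ± 0.18), Cdkn1c (-1.15 ± 0.21) and Cdk6 (-0.69 ± 0.13) were among the regulators that differed. Of the other lists, 13 of 65 mitosis genes fell and 1 rose, and 3 of 54 replication genes rose and 3 fell. Markers of cell type differed as well. Of 13 progenitor markers, 7 rose and 2 fell (summed 6230 to 6600 against 6310 to 7380 CPM). All 6 B cell markers tested rose (165 to 280 against 105 to 133 CPM), and so did all 5 megakaryocyte markers tested (172 to 440 against 54.6 to 68.7 CPM). Of 11 erythroid markers tested, 5 rose and 1 fell (161 to 218 against 260 to 287 CPM), and of 14 granulocyte-monocyte markers 6 fell (705 to 1360 against 1120 to 3680 CPM). Of 6 mast, basophil and eosinophil markers tested, 2 rose and 1 fell, and of 5 T and NK cell markers tested, 2 rose and 1 fell. The part of these markers in the results on mitosis genes was not tested.

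**Figure D2:**
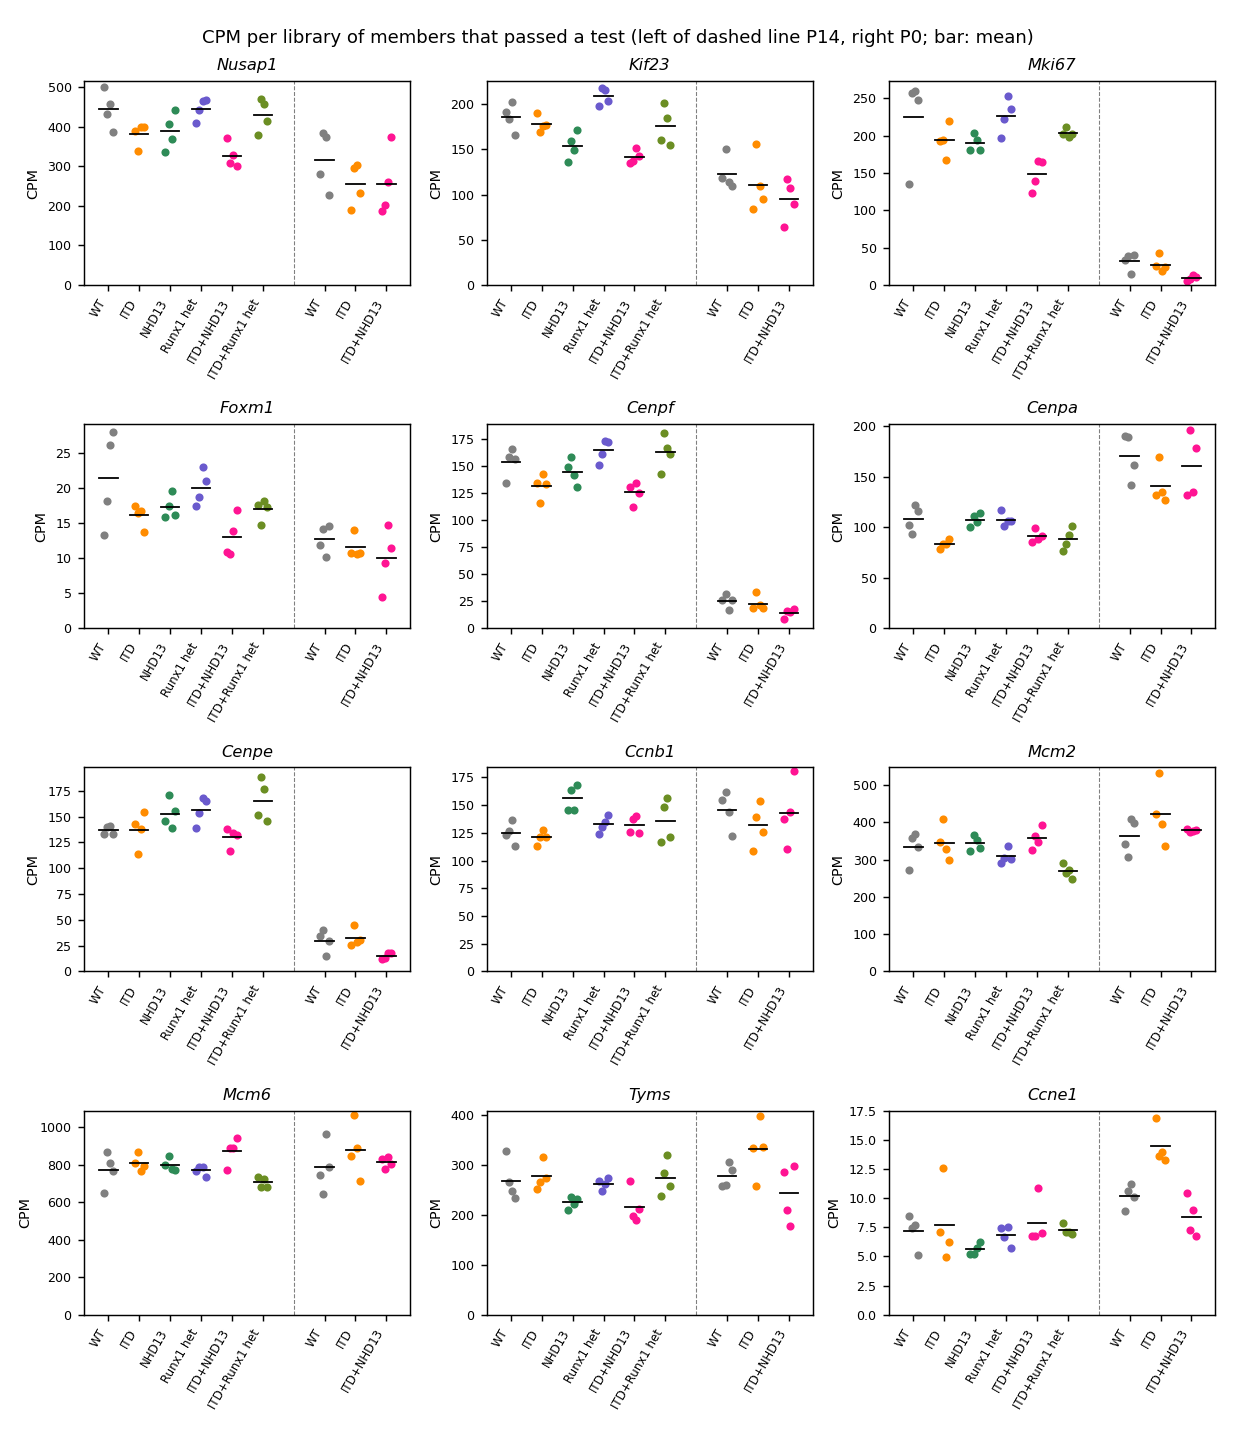
CPM (y axes, from 0) in each library of the 9 groups (x axes) for 12 genes that passed in at least 1 comparison; points are libraries and bars group means, with P14 left and P0 right of the dashed line. Nusap1 and Kif23 libraries of FLT3-ITD with NHD13 lie below all 4 wild-type libraries at P14, Mcm2 is lowest in FLT3-ITD with Runx1-heterozygous, and Mki67, Cenpf and Cenpe are several-fold lower in all P0 groups.

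Runx1 heterozygosity added to FLT3-ITD changed 4 of 46 members, a share near that of all genes. It lowered Mcm2 from 346, 408, 328 and 299 CPM to 289, 264, 271 and 249 (-0.36 ± 0.09, adjusted p = 0.0124), with no overlap. Mcm7 was at 559.7, 722, 579 and 582 CPM in FLT3-ITD and 436, 482, 598 and 441 in the double mutant (-0.32 ± 0.09, adjusted p = 0.0304), where replicate 3 reached the FLT3-ITD range. Cenpf (0.31 ± 0.09, adjusted p = 0.0273) and the ubiquitin enzyme Ube2c (0.32 ± 0.10, adjusted p = 0.0396) rose. These were 2 of 23 genes in each set, where 7.2% of all genes passed (3.31% higher, 3.9% lower). The other 5 MCM genes did not pass. Of 8 B cell markers 6 were tested and 5 fell in the same comparison (summed 105 to 133 against 167 to 509 CPM, with Pax5 and Ms4a1 at 0 in the double mutant), and of 13 progenitor markers 2 rose and 5 fell (6310 to 7380 against 7010 to 7310 CPM); their part was not tested. None of the 4 passed without FLT3-ITD replicate 2 or without double-mutant replicate 4, and 8 members passed without double-mutant replicate 3. There were 2 calls without FLT3-ITD replicate 1 and 1 without double-mutant replicate 2.

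Against wild type, FLT3-ITD with Runx1-heterozygous showed 5 members past the threshold, where 22.7% of all genes passed. Mcm2 (-0.31 ± 0.09, adjusted p = 0.0151), Cenpa (-0.30 ± 0.09, adjusted p = 0.0177) and the spindle motor Kif11 (-0.26 ± 0.09, adjusted p = 0.0362) fell, and Rrm2, a ribonucleotide reductase subunit (0.29 ± 0.10, adjusted p = 0.0399), and Cenpe (0.28 ± 0.09, adjusted p = 0.0326) rose. The count was 0 without wild-type replicate 3 and 2 or 3 without wild-type replicate 2 or 4 or double-mutant replicate 1, 2 or 4. Of 6 B cell markers tested 5 fell (105 to 133 against 164 to 218 CPM), and their part was not tested. Runx1 heterozygosity alone gave 0 of 46 against wild type by edgeR and by DESeq2, where 0.778% and 1.47% of all genes passed, and 1 mitosis gene was at an unadjusted p under 0.05. Adding FLT3-ITD to Runx1-heterozygous cells lowered Cenpa (-0.28 ± 0.09, adjusted p = 0.033) and Kif23 (-0.25 ± 0.08, adjusted p = 0.0404), where 14.9% of all genes passed (8.18% lower), and neither passed with only these groups in the fit. The count was 0 without double-mutant replicate 1 or Runx1-heterozygous replicate 3, 1 without double-mutant replicate 2 or 4 or Runx1-heterozygous replicate 2, and 4 without double-mutant replicate 3.

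FLT3-ITD alone lowered 1 of 46 members against wild type at P14, where 8.6% of all genes passed (4.76% lower). Cenpa was at 102, 93.5, 122 and 116 CPM in wild type and 78.0, 83.6, 83.7 and 88.6 in FLT3-ITD, with every FLT3-ITD library below every wild-type one (-0.38 ± 0.09, adjusted p = 0.00685). At an unadjusted p under 0.05, 8 mitosis genes were lower and 1 replication gene was higher, without a share over all genes at that threshold. The count of calls was 0 without wild-type replicate 3 and 7 without wild-type replicate 1. Of 40 cell cycle regulators tested, 4 rose and 3 fell, with a median of -0.06 over the list. Some of these moved far more than the members: Cdkn1a (2.14 ± 0.19) and Cdk6, the D-cyclin kinase (0.98 ± 0.13), rose and Ccnd1 (-2.65 ± 0.25) fell.

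NHD13 alone moved 2 mitosis genes in opposite directions, where 15.9% of all genes passed (17.3% by DESeq2). Ccnb1 was at 146, 164, 146 and 168 CPM in NHD13 against 123, 126, 136 and 113 in wild type, with no overlap (0.32 ± 0.09, adjusted p = 0.00879), and passed in all 14 alternatives. Kif23 was at 136, 159, 149 and 171 CPM in NHD13 (-0.27 ± 0.08, adjusted p = 0.0222), with NHD13 replicate 4 above wild-type replicate 4, and it did not pass without NHD13 replicate 1 or 3 or without wild-type replicate 1 or 3. No replication gene passed in edgeR or DESeq2, with 1 lower at an unadjusted p under 0.05. Here Cdkn1a fell (-1.77 ± 0.21). Of 5 megakaryocyte markers tested 4 rose (summed 275 to 996 against 78.1 to 102 CPM), of 11 erythroid markers 6 rose and of 5 T and NK cell markers 4 fell, and their part was not tested.

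The alleles were also compared when added to each other. Adding NHD13 to FLT3-ITD lowered Tyms (-0.36 ± 0.11, adjusted p = 0.0215) and Kif23 (-0.33 ± 0.08, adjusted p = 0.00613), where 13.5% of all genes passed (7.18% lower), and Kif23 held in all 14 alternatives. The count was 4 without double-mutant replicate 1 and 1 without its replicate 2, 3 or 4 or FLT3-ITD replicate 3. Adding FLT3-ITD to NHD13 gave 0 calls among the 46 by edgeR and 1 by DESeq2. At an unadjusted p under 0.05, 13 mitosis genes were lower, with no share over all genes at that threshold to set beside them. There were 2 calls without replicate 1 of either group. The median mitosis change there was -0.20, with 21 of 23 below 0, and 6.24% of all genes passed (7.87% by DESeq2). The interactions, which test whether the double mutant departs from the sum of the single effects, gave 0 calls for either pair by edgeR and by DESeq2. At an unadjusted p under 0.05 there were 2 replication genes lower and 1 mitosis gene higher for NHD13, and 1 replication gene lower for Runx1. Over all genes 0.535% and 1.68% passed by edgeR and 1.15% and 2.6% by DESeq2. These comparisons share libraries with each other.

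The balance of the sets, the mean log2 CPM of the replication genes minus that of the mitosis genes in a library, summarises these values and is given with no test. At P14 it was 0.27 ± 0.14 in wild type (SD, n = 4, range 0.15 to 0.43), 0.44 ± 0.11 in FLT3-ITD (0.38 to 0.60) and 0.48 ± 0.06 in FLT3-ITD with NHD13 (0.43 to 0.55). NHD13 alone stood at 0.27 ± 0.04, Runx1-heterozygous at 0.22 ± 0.04 and FLT3-ITD with Runx1-heterozygous at 0.26 ± 0.04 (0.22 to 0.31). The libraries of the 2 double mutants did not overlap, while those of wild type and FLT3-ITD with NHD13 overlapped at their ends. In FLT3-ITD with NHD13 the mitosis mean was lower, at 7.19 ± 0.05 log2 CPM against 7.39 ± 0.10 in wild type, and the replication mean was 7.67 ± 0.03 against 7.65 ± 0.08. With medians over the members in place of means, the FLT3-ITD minus wild-type difference shrank from 0.17 to 0.03. At P0 the balance was 0.70 ± 0.25 in wild type (0.38 to 0.93) and 1.05 ± 0.31 in FLT3-ITD (0.59 to 1.28). In P0 FLT3-ITD with NHD13 it was 0.92 ± 0.41 (0.69 to 1.54), and the ranges of all P0 groups overlapped.

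**Figure D3:**
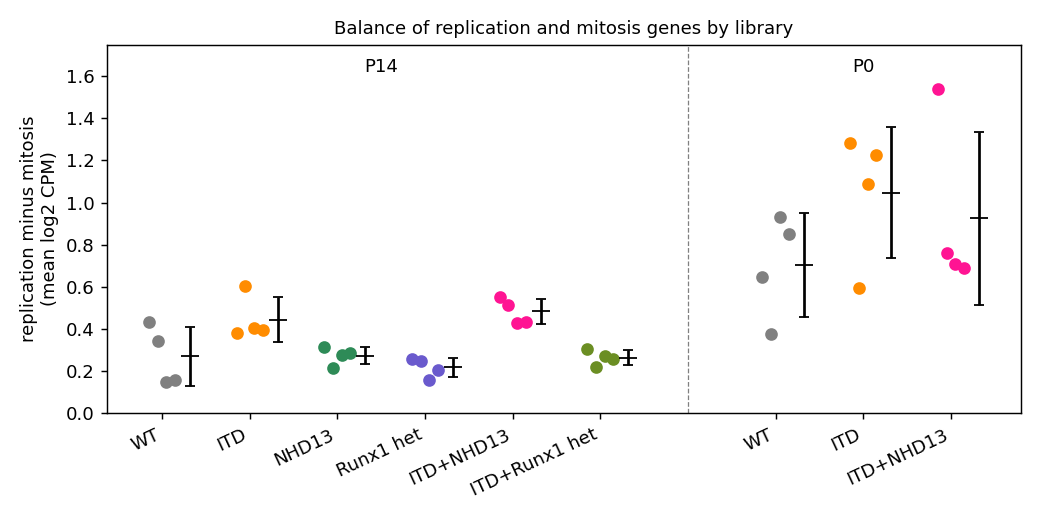
Replication minus mitosis balance (y axis, difference of mean log2 CPM over 23 genes each) in every library, by group (x axis), with P14 left and P0 right of the dashed line. Points are libraries and bars the group mean ± SD (n = 4); at P14 the FLT3-ITD with NHD13 libraries lie at 0.43 to 0.55 and those of FLT3-ITD with Runx1-heterozygous at 0.22 to 0.31.

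Within groups the median correlation between genes of a set was above 0, weakly so for replication at P0. After each group's mean was removed, the median pairwise correlation across the 24 P14 libraries was 0.302 within replication (253 pairs), 0.366 within mitosis (253 pairs) and 0.204 between the sets (529 pairs). Across the 12 P0 libraries these were 0.158, 0.564 and -0.198. All pairs share libraries and depth, and pairs of other genes were not measured, so these values are not shown to be particular to the sets. At P14 the genes with CHR letters in their promoters included 7 of 14 mitosis genes that passed against wild type in FLT3-ITD with NHD13, and those without included 2 of 4.

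At birth, replication genes were lower in FLT3-ITD with NHD13 than in FLT3-ITD and mitosis genes were mixed, but few of either set passed. FLT3-ITD with NHD13 against FLT3-ITD gave 1 lower replication gene and 2 lower mitosis genes, where 2.88% of all genes passed (1.14% lower). All 23 replication genes were below 0, with a median of -0.32 against 0.03 over all genes, and 13 were lower at an unadjusted p under 0.05. Of 23 mitosis genes, 17 were below 0 and 6 above, with a median of -0.16, and 5 were lower at that threshold. The share of all genes at the unadjusted threshold is not given. Ccne1, the cyclin that starts S phase, was at 16.9, 13.6, 14.0 and 13.3 CPM in FLT3-ITD and 10.5, 7.30, 8.96 and 6.78 in the double mutant, without overlap (-0.79 ± 0.20, adjusted p = 0.0459). It passed in 4 of 15 alternatives. No member passed without FLT3-ITD replicate 1, 2 or 4 or double-mutant replicate 4, and 1 passed without replicate 3 of either group. Of the other lists, the clamp loader Rfc1 (-0.77 ± 0.16), the histone chaperone subunit Chaf1b (-0.56 ± 0.13), the maintenance methyltransferase Dnmt1 (-0.94 ± 0.23), Cenpm (-0.61 ± 0.14) and Myc (-0.82 ± 0.19) fell, and none of these 3 lists had a gene that rose.

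Against wild type at P0, most genes of both sets were below 0 in FLT3-ITD with NHD13. These were 22 of 23 mitosis genes (median -0.30) and 19 of 23 replication genes (median -0.16), against a median of 0.02 over all genes. Mki67 was the one member past the threshold in this comparison, where 2.08% of all genes passed. Its level was 33.6, 38.3, 14.9 and 39.8 CPM in wild type, 24.9, 42.5, 18.4 and 23.9 in FLT3-ITD and 5.15, 8.70, 13.5 and 10.7 in FLT3-ITD with NHD13. Every double-mutant library lay below every library of the other groups. The change was -1.73 ± 0.35, adjusted p = 0.0131 against wild type and -1.53 ± 0.34, adjusted p = 0.0264 against FLT3-ITD. Cenpe was at 34.0, 40.5, 15.3 and 29.5 CPM in wild type, 25.8, 45.1, 28.6 and 30.3 in FLT3-ITD and 12.1, 13.3, 17.8 and 17.6 in the double mutant (-1.09 ± 0.27, adjusted p = 0.0415 against FLT3-ITD), and wild-type replicate 3 fell within the double mutant's range.

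A measure of transcript length differed between these P0 libraries. The median log2 CPM of 3905 genes with at least 6000 bases of exon minus that of 2917 genes of 1500 to 3000 bases was 0.22 to 0.38 in the P0 wild type and 0.02 to 0.21 in FLT3-ITD. In FLT3-ITD with NHD13 it was 0.02 and -0.16 in replicates 1 and 2 and 0.37 and 0.40 in replicates 3 and 4. Mki67 has 10061 and Cenpe 8620 bases of exon. In replicates 3 and 4, Mki67 was at 13.5 and 10.7 CPM. These replicates lie near the top of the wild-type range or just above it in the length measure, and above every FLT3-ITD library. With only these 2 for the double mutant, a setting chosen after the data were seen, Mki67 was at -1.39 ± 0.40 against wild type (adjusted p = 0.149) and no member passed. Against FLT3-ITD the setting widens the gap in the length measure, so it is no control for length there. Mki67 (-1.18 ± 0.40, adjusted p = 0.104) and Cenpe (-0.87 ± 0.33, adjusted p = 0.144) then missed the threshold with changes somewhat closer to 0, while Ccne1 (-0.88 ± 0.22, adjusted p = 0.0432), Gins1 (-0.74 ± 0.16), Gins2 (-0.69 ± 0.14), Tk1 (-0.69 ± 0.15) and Mcm7 (-0.42 ± 0.11) passed. No mitosis gene passed against FLT3-ITD with these 2 libraries, and mitosis genes lay on both sides of 0, from Mki67 (-1.18) to Kif11 (0.72). The part of transcript length in the P0 calls was not tested. Mki67 also missed the threshold against wild type without wild-type replicate 4 (adjusted p = 0.053), and 2 members passed without wild-type replicate 3.

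FLT3-ITD alone at P0 gave 0 calls among the 46 by edgeR and by DESeq2, where 0.0139% and 0.822% of all genes passed. At an unadjusted p under 0.05, 5 replication genes were higher, and 22 of 23 were above 0 with a median of 0.21. Mcm5 was at 781, 765, 852 and 885 CPM in wild type, 925, 936, 1032 and 935 in FLT3-ITD and 870.4, 878, 743 and 734 in FLT3-ITD with NHD13. Its FLT3-ITD libraries were all above those of both other groups, but the test against wild type gave 0.22 ± 0.11, adjusted p = 0.533. Rrm2 and Ccne2 spread widely within groups, with Ccne2 at 150.2, 24.6, 68.4 and 131 CPM in the double mutant. Granulocyte-monocyte markers were lower in FLT3-ITD with NHD13 than in FLT3-ITD at P0 (3 of 12 tested, summed 584 to 1420 against 1710 to 2480 CPM). There, 4 of 13 progenitor markers rose and 1 fell, and 3 of 5 T and NK cell markers tested fell. The part of these markers was not tested.

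**Figure D4:**
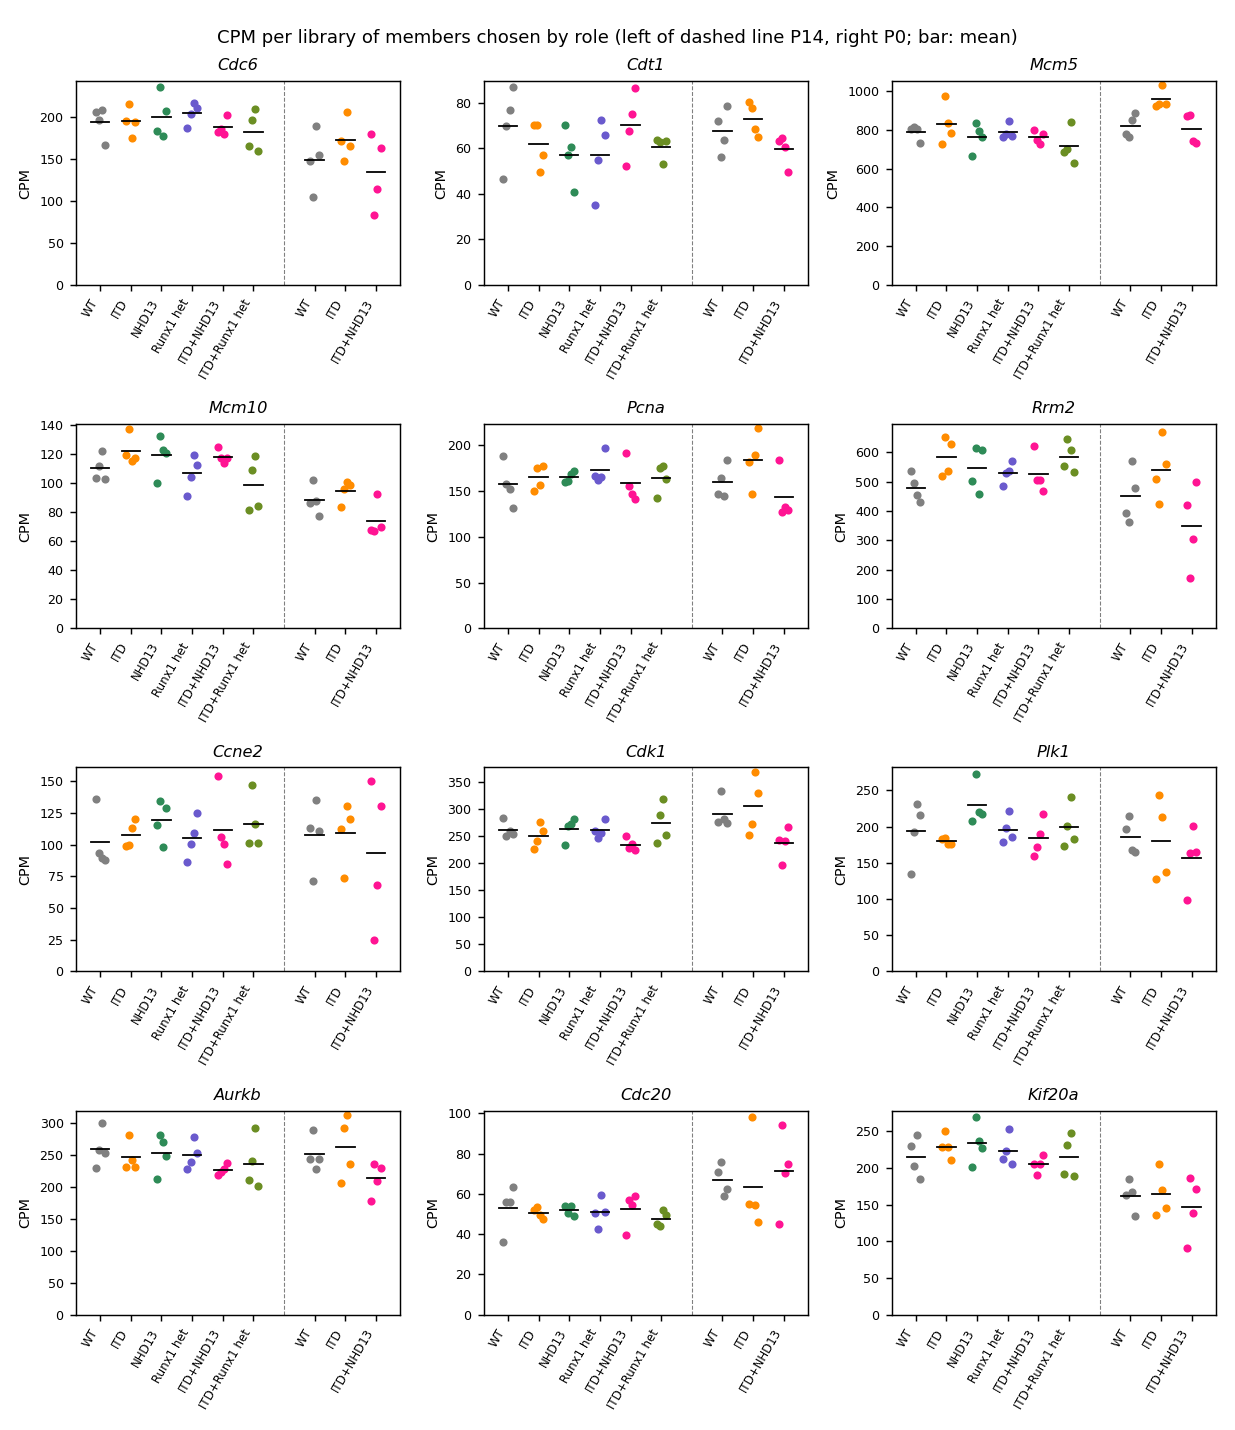
CPM (y axes, from 0) in each library of the 9 groups (x axes) for 12 further genes named for their roles, 7 of replication (Cdc6, Cdt1, Mcm5, Mcm10, Pcna, Rrm2, Ccne2) and 5 of mitosis (Cdk1, Plk1, Aurkb, Cdc20, Kif20a); points are libraries, bars group means, P14 left and P0 right of the dashed line. Mcm5 in P0 FLT3-ITD (925 to 1032 CPM) lies above both other P0 groups, and Ccne2 in P0 FLT3-ITD with NHD13 spans 24.6 to 150.2 CPM.

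The ages were deposited in separate tables, so age and table cannot be told apart, and levels are compared across them only as a description. In wild type the mitosis mean was 7.39 log2 CPM at P14 and 6.92 at P0, while the replication mean was 7.65 and 7.62. The lower mitosis level at P0 was most marked among long genes. The median P0 minus P14 difference was -1.63 for 6 mitosis genes over 7000 bases and 0.03 for the 17 shorter ones. The shorter ones spread from -0.65 (Foxm1) to 0.76 (Ccna2), and the long genes Kif11 (-0.61) and Kif23 (-0.55) lay within that spread. Mki67 (-2.82), Cenpf (-2.60) and Cenpe (-2.23) were farthest from 0. Across the 23 mitosis genes the difference went with log2 exon length (r = -0.73, rho = -0.67), and across the 23 replication genes less so (r = -0.43, rho = -0.25), all from the same libraries. The long-minus-short measure itself was 0.79 in P14 and 0.30 in P0 wild type. At P14 it was 0.77 in FLT3-ITD with NHD13, within 0.02 of wild type. The P14 change of this group against wild type still went with log2 exon length (mitosis r = -0.365, rho = -0.388, replication r = -0.43, rho = -0.468). Its median was -0.30 for the 6 long mitosis genes and -0.16 for the 17 shorter ones. At P0 these medians were -0.61 and -0.26 (mitosis r = -0.61, replication r = -0.10). The part of length in these changes was not tested.

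**Figure D5:**
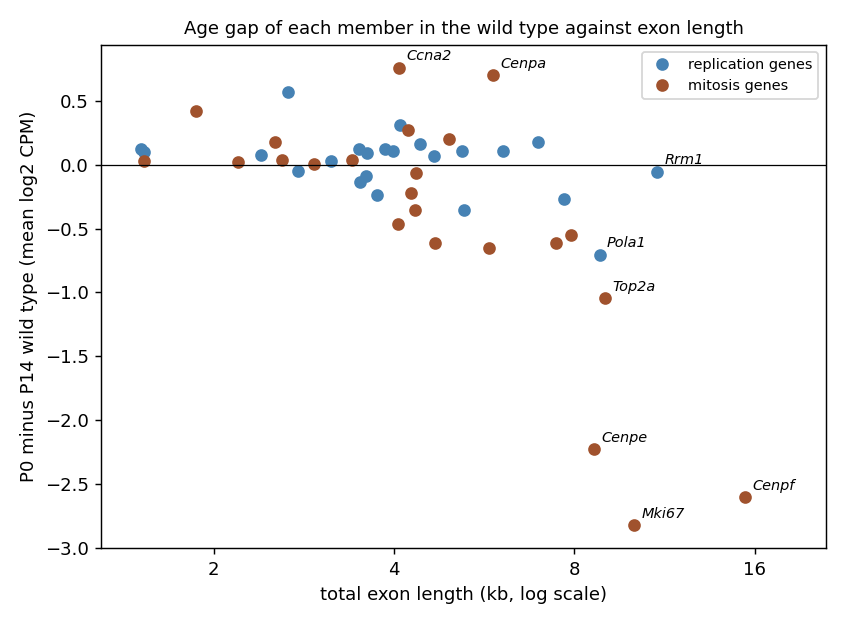
P0 minus P14 difference of mean log2 CPM in wild type (y axis, 4 libraries at each age) against total exon length in kb (x axis, log scale) for 23 replication genes (blue) and 23 mitosis genes (brown). The long mitosis genes Mki67, Cenpf and Cenpe lie at -2.82, -2.60 and -2.23, and the 17 mitosis genes up to 7000 bases have a median of 0.03.

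Each age's change against its own wild type was compared in a fit of both ages over 14984 genes. The change in FLT3-ITD with NHD13 differed between ages for 1 of 46 members, Cenpe (-0.92 ± 0.25, adjusted p = 0.0285, P0 minus P14), where 3.91% of all genes passed. It passed in 12 of 22 alternatives. It missed the threshold with only these groups in the fit and without P14 double-mutant replicate 1, 3 or 4, P14 wild-type replicate 3 or 4, P0 double-mutant replicate 1 or 2, or P0 wild-type replicate 1 or 2. For FLT3-ITD alone no member differed by edgeR or DESeq2, with 3 replication genes higher at P0 at an unadjusted p under 0.05, and 0.194% of all genes passed (0.487% by DESeq2).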

How the data were processed

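A Qiagen micro kit gave the RNA of mouse hematopoietic progenitor cells, from which SMART cDNA libraries were made, per the labels' protocols. The authors deposited unnormalized counts of reads by Ensembl gene ID, in 1 table for each age. The submitters' processing notes list STAR 3.0.4 (as written there), Subread and featureCounts 1.4.5; the genome build, annotation and strand setting are not given in the sources used here. Of 40 samples in 10 labelled groups, 36 in 9 groups had a column of counts; the 4 P0 NHD13 samples were not analysed here. A further 4 P0 columns carried the name of FLT3-ITD with NHD13 with library numbers that match no sample, and were not used, and 276 repeated P0 rows were dropped. Over 54 pairs of libraries of a group, counts differed well beyond sampling noise (lowest chi-square per degree of freedom 9.85).

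Each age was fitted with edgeR 4.0.16 in R 4.3.3 (TMM, filterByExpr, robust quasi-likelihood F test, 1 mean per group, all groups of the age), with Benjamini-Hochberg adjustment over all genes tested, in 17 comparisons. Log2 CPM used a prior count of 2; CPM used TMM-scaled library sizes. Scripts were tested on simulated data. DESeq2 1.42.0, other settings and leaving out each library were alternatives. The values of 1 marker gene are not reported here. The members and lists were chosen with earlier results of these data known. Genes with values in every library were 16 chosen by role and, per comparison and set (replication or mitosis), the passing gene with the smallest p, with Mcm6 and Mcm7 added after their values were seen; all passing members could be named, and of the other lists up to 3 passing genes per direction with the largest change and a mean log2 CPM of at least 1. The promoters shown were a choice of 4 from these genes. Without stated strand, reads of a gene and an antisense partner cannot be told apart.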

Additional observations from a re-analysis of the deposited data

Results flagged for a closer look

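In 234 sets of 4 libraries (the genes given with a value in every library, and the balance, by group), 1 library stood apart from the other 3 by Dixon's ratio in 15; chance alone gives about 1 in 20. In log2 CPM, the P14 wild type had Mki67 at 7.08 in replicate 1 against 7.95 to 8.02 in the others, Ccne2 at 7.09 in replicate 1 against 6.46 to 6.55, and Mcm5 at 9.52 in replicate 4 against 9.65 to 9.67. In P14 FLT3-ITD replicate 2, Nusap1 was low at 8.40 and the balance high at 0.60. Pcna was at 7.62 in P14 Runx1-heterozygous replicate 4. Ccne1 was at 3.46 in replicate 3 of P14 FLT3-ITD with NHD13 and at 3.0 in replicate 1 of FLT3-ITD with Runx1-heterozygous, where Cdt1 was at 5.73 in replicate 3. At P0, Cdk1 was at 8.38 in wild-type replicate 2, Foxm1 at 3.81 in FLT3-ITD replicate 2 and Mcm5 at 10.01 in FLT3-ITD replicate 3. In P0 FLT3-ITD with NHD13, Mcm10 was at 6.53 in replicate 3, and replicate 1 had Pcna at 7.52 and a balance of 1.54, against 0.69 to 0.76 in the other 3.

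The change of Cenpe in FLT3-ITD with NHD13 against wild type differed between the ages by the edgeR test of the difference itself (-0.92 on the log2 scale, P0 minus P14, adjusted p = 0.0285).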

How the results depend on the processing

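Counts of members passing, main value first, changed by over 1.5 times as follows. With only the groups compared in the fit: NHD13 against wild type 2 to 1, FLT3-ITD with NHD13 against wild type 11 to 5, FLT3-ITD with Runx1-heterozygous against wild type 5 to 1, NHD13 added to FLT3-ITD at P14 2 to 4, FLT3-ITD added to NHD13 0 to 1, FLT3-ITD added to Runx1-heterozygous 2 to 0, and the age difference in FLT3-ITD with NHD13 1 to 0. With DESeq2: NHD13 added to FLT3-ITD 2 to 4 at P14 and 3 to 5 at P0, FLT3-ITD added to NHD13 0 to 1, FLT3-ITD with NHD13 against wild type at P0 1 to 2, and its age difference 1 to 2. With RLE factors, FLT3-ITD added to NHD13 went from 0 to 1 and FLT3-ITD added to Runx1-heterozygous from 2 to 1. With no filter the latter also went to 1, FLT3-ITD with Runx1-heterozygous against wild type from 5 to 3 and Runx1 heterozygosity added to FLT3-ITD from 4 to 2; a sex term gave the same 3 and 2. With only the P0 double-mutant libraries of wild-type-like length measure, the P0 counts went from 1 to 0 against wild type and from 3 to 5 against FLT3-ITD. With medians over the members, balance differences were 0.026 for FLT3-ITD minus wild type, -0.119 for FLT3-ITD with Runx1-heterozygous minus wild type and 0.286 between the double mutants. The causes were not tested.

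Leaving out 1 library gave these ranges of counts at P14: FLT3-ITD against wild type 0 to 7, NHD13 1 to 3, Runx1-heterozygous 0 to 0, FLT3-ITD with NHD13 5 to 10, FLT3-ITD with Runx1-heterozygous 0 to 7, NHD13 added to FLT3-ITD 1 to 4, FLT3-ITD added to NHD13 0 to 2, Runx1 heterozygosity added to FLT3-ITD 0 to 8, FLT3-ITD added to Runx1-heterozygous 0 to 4, the double mutants against each other 5 to 12, and both interactions 0 to 0. At P0 they were 0 to 0 for FLT3-ITD, 0 to 2 for FLT3-ITD with NHD13 against wild type and 0 to 2 against FLT3-ITD, and for the age differences 0 to 0 and 0 to 2. The remaining 83 counts under other settings stayed within 1.5 times. No member that passed in a comparison reversed direction there under any setting run. Members that did not pass could reverse. Against wild type at P0, Foxm1 in FLT3-ITD with NHD13 was at -0.35 in the main fit. It was at 0.04 with only the P0 double-mutant libraries of wild-type-like length measure. Balance differences from wild type crossed 0 when 1 library was left out for NHD13 (-0.038 to 0.058), Runx1-heterozygous (-0.094 to 0.002) and FLT3-ITD with Runx1-heterozygous (-0.048 to 0.048).

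The main fits did not pair libraries by replicate number. After group means were removed, same-numbered libraries correlated at -0.145 to 0.373 at P14 (60 pairs, median 0.00) and -0.183 to 0.348 at P0 (12 pairs, median 0.10). Differently numbered libraries of different groups correlated at -0.310 to 0.255 at P14 (180 pairs, median 0.00) and -0.227 to 0.282 at P0 (36 pairs, median -0.02). With the number as a replicate block the counts were 10 for FLT3-ITD with NHD13 against wild type, 11 between the double mutants, 3 for NHD13 and 5 for Runx1 heterozygosity added to FLT3-ITD at P14, and 2 for NHD13 added to FLT3-ITD at P0, with the other 12 comparisons at their main counts. Most changes here are under 1.5-fold, and with 4 libraries a group, set by library spread rather than depth, a gene that misses the threshold is not shown to be unchanged, least of all at P0, where the biological coefficient of variation was 0.301 against 0.164 at P14.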
